A study of Mus musculus with 4 samples.

Results

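The genes described here make, lengthen, desaturate, activate, carry and burn fatty acids. They were chosen by name: every non-control probe of the array whose gene symbol belongs to the families Acsb, Acsf, Acsl, Acsm, Acss, Acad, Acaa, Acaca and Acacb, Acox, Elovl, Fads, Fabp, Cpt1 and Cpt2, Hadh or Scd, or is Fasn. The rule found 68 genes with 106 probes among the 41174 probes of the array, and 56 of the 68 genes had a probe bright enough to test, among 17537 features tested in all. The rule reads names alone and no measured value, but it was set with earlier results of these data known.

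The study forced expression of Nanos2, an RNA-binding protein of spermatogonial stem cells, in cultured mouse germline stem cells, which are testis-derived stem cells kept in long-term culture. RNA of 4 samples was hybridised to 1-colour Agilent arrays with 60-nucleotide probes, with 2 arrays per group. Cells of both groups carried a tamoxifen-activated recombinase at the Rosa locus (written Roa-CreERT2 in the design) together with the transgene CAG-CAT-3FlagNanos2-pA, in which the broadly active CAG promoter drives Flag-tagged Nanos2 once the recombinase has acted. The control group was given DMSO and the other group 4-hydroxytamoxifen (named Tamoxifen in some labels), each for 48 hours. The cells of both groups were kept on feeder layers of mitomycin-C-treated fibroblasts from C57Bl6 embryos in medium with rat GDNF at 20 ng/ml, mouse EGF at 20 ng/ml and human FGF2 at 10 ng/ml, and feeders were taken off before RNA was extracted. No group was given the compound without the transgene, so effects of Nanos2, of the compound and of the recombinase cannot be told apart. The labels do not say how many lines or animals the cells came from, or that the replicates were separate cultures, so a p-value here reflects the spread among 4 arrays only, and that spread may be technical.

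Cells build palmitate in the cytosol from acetyl-CoA through the acetyl-CoA carboxylases and fatty acid synthase, and elongases and desaturases then lengthen it and add double bonds. To be burned, a fatty acid is joined to coenzyme A by an acyl-CoA synthetase, passed into mitochondria by the carnitine palmitoyltransferases and shortened in repeated rounds of beta-oxidation by acyl-CoA dehydrogenases, the trifunctional protein and thiolases, while peroxisomes shorten very long and branched chains through acyl-CoA oxidases. Fatty acid binding proteins carry the free acids through the cytosol. In the testis, germ cells and the somatic cells around them differ in which of these steps they use, and long polyunsaturated acids are abundant there.

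Each array held 41174 different probes without controls, and 62.1% to 65.9% of its spots were well above background. No spot was saturated. Signals are given as normalized intensities, the processed signal scaled so that the arrays share their 75th percentile, and differences on the log2 scale as 4-hydroxytamoxifen minus DMSO, each ± its limma standard error (2 arrays per group). A gene was called higher or lower at a Benjamini-Hochberg adjusted limma p under 0.05 over all 17537 features. The number of arrays limits the precision. In a fit that leaves out 1 array, the spread comes from the 2 arrays of the other group and from limma's moderation over all features, and the lone array is assumed to vary like them, so a call gained or lost there reflects that spread as well as the difference. Nanos2 itself read 346.0 and 341.5 with DMSO and 927.2 and 1095 with 4-hydroxytamoxifen, a rise of 1.55 ± 0.10 (adjusted p = 0.000861); whether the transgene's transcript includes the probe's sequence was not analysed here.

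Markers of several cell types also differed between the groups. Over all features, 40.3% rose and 29.3% fell. Of 24 embryonic fibroblast markers, 23 were measured and 22 rose (median 1.01); their summed signal was 262317 and 300881 with DMSO and 522923 and 496857 with 4-hydroxytamoxifen. Of 9 macrophage markers, 8 were measured and 6 rose, with summed signals of 11800 and 13106 against 25779 and 26402, most of it from Lyz2, while Ptprc, the common leukocyte antigen, read 20.6 to 22.0 on every array. Of 8 adipocyte markers, 4 were measured and 2 rose, with summed signals of 237.6 and 280.0 against 511.3 and 558.5; Lep, Cfd and Plin1 were not well above background on enough arrays. Of 6 endothelial markers, 4 were measured and 2 rose (summed signals of 189.9 and 196.2 against 405.3 and 367.6), with Cdh5 and Tie1 not measured. Of 13 Sertoli and Leydig cell markers, 8 were measured, 5 rose and 2 fell (summed signals of 3942 and 4377 against 8919 and 8462). Those that rose were the Sertoli cell genes Sox9, Dhh, Cldn11, Clu and Inhbb, and most of the summed signal came from Inhbb and Clu. The Sertoli cell gene Wt1 fell (-0.88). Of the Leydig cell genes measured, Cyp17a1 fell (-0.43) and Star did not pass (-0.13). Of 8 germ cell markers, 7 were measured, 4 fell (6 under median scaling, 3 under spike-in scaling) and 3 did not pass. Their summed signals were 106266 and 105262 against 81797 and 84788, and Dazl alone fell from 21333 and 21777 to 7977 and 8266. The differences were unequal: -2.45 for Gfra1, -1.41 for Dazl, -0.86 for Etv5 and -0.26 for Tex101. Those of Ddx4 (-0.17), Sall4 (-0.16) and Mael (0.12) did not pass. The germ cell genes Ddx4, Dazl and Tex101 were well above background on all 4 arrays. The part of these shifts in the differences below was not tested. In such bulk RNA, a change in cell number cannot be told apart from a change in RNA per cell. That change may be in all transcripts or in single ones.

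Of the 56 measured fatty acid genes, 26 rose, 18 fell and 12 did not pass the threshold. That is 78.6% called, where 69.5% of all features were called; 46.4% of the fatty acid genes rose against 40.3% of all features, and 32.1% fell against 29.3%. The median difference was 0.32 over the fatty acid genes and 0.11 over all features, and the differences ran from -1.24 (Fads2) to 1.57 (Cpt1a). Calls with an estimated difference of at least 2-fold were made for 14 of the 56 genes, 12 higher and 2 lower. Of all features, 24.4% reached that size (16.2% higher, 8.19% lower). Elovl3, among the lower ones, was not well above background with 4-hydroxytamoxifen and is only bounded, at least 1.34-fold lower. The dim genes Elovl2, Acsl6 and Fabp7 rose by less with normexp background correction, as given below. In 54 of the 56 genes both arrays of one group lay above both of the other, as in 86.5% of all features; the exceptions were Acss3 and Acsbg2. Scaling each array on its median in place of its 75th percentile moved the median of all features to -0.07 and gave 19 higher and 19 lower fatty acid genes, with 5730 higher and 6663 lower features in all against 7063 and 5132 in the main scaling. With median scaling 67.9% of the fatty acid genes were called, against 70.7% of all features. Under the other alternatives the share called stayed above that of all features. Relative to all features, the median fatty acid gene lay 0.21 higher under both the 75th percentile and the median scaling. That gap could not change between them, because each scaling shifts all features of an array by the same amount. Among alternatives that can change it, the gap was 0.16 with normexp background correction and 0.15 without 4-hydroxytamoxifen replicate 1. With quantile normalization it was 0.24.

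**Figure D1:**
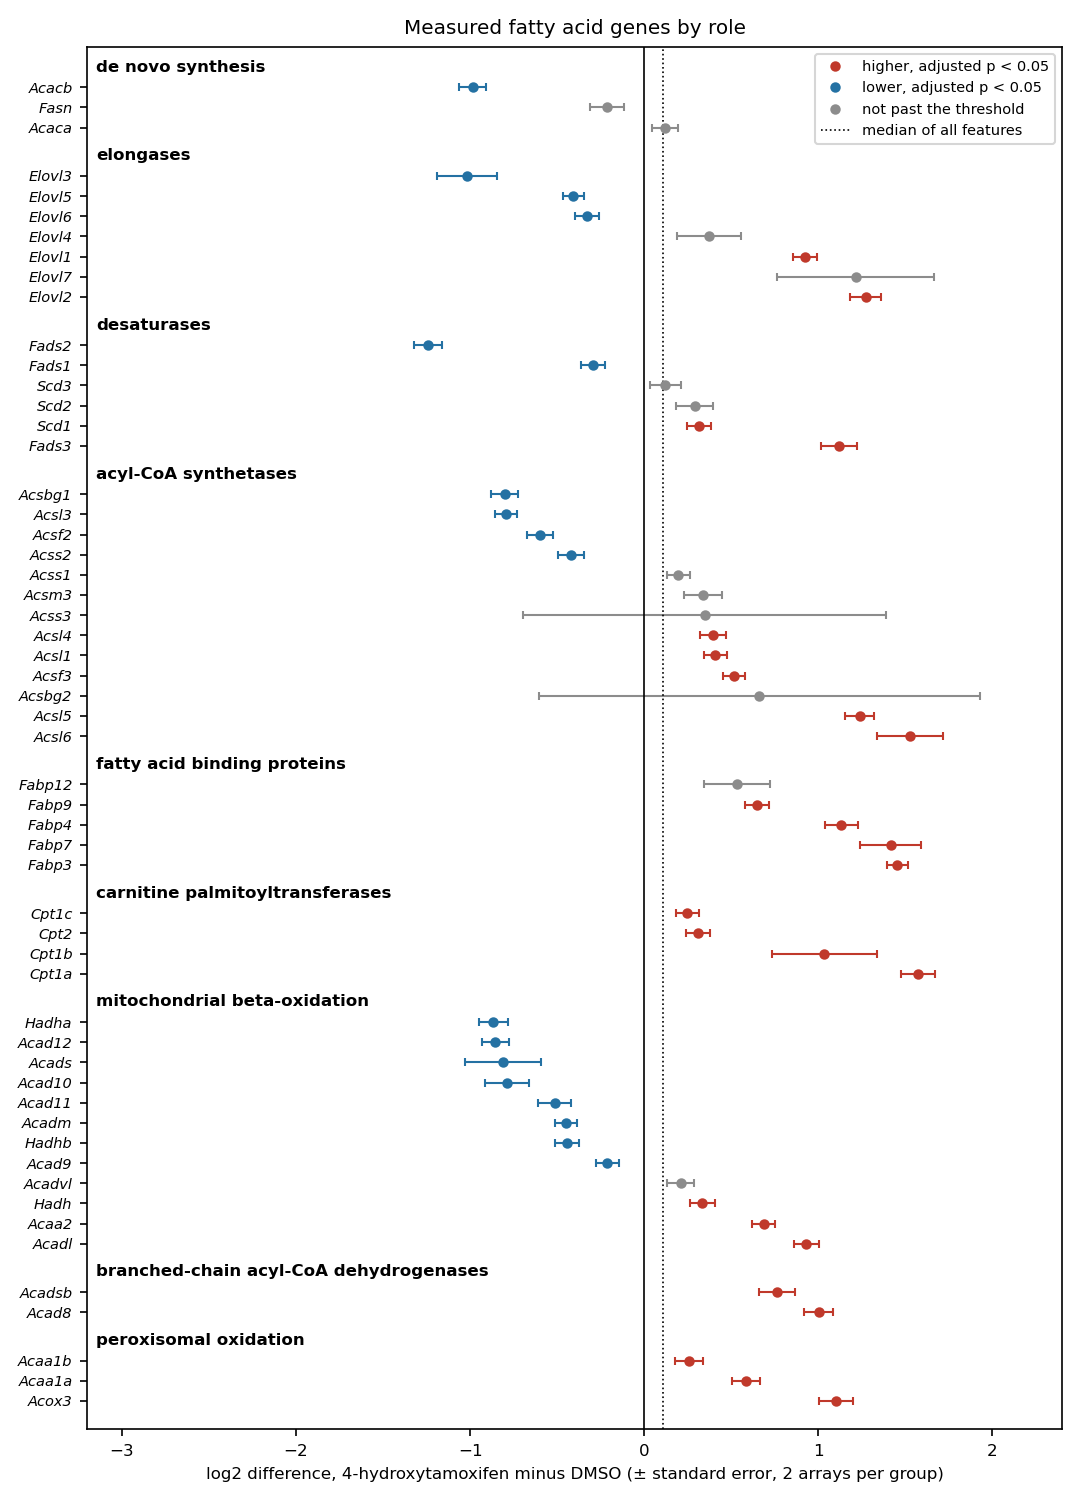
Difference on the log2 scale, 4-hydroxytamoxifen minus DMSO (x axis), ± standard error (2 arrays per group), for 55 of the 56 measured fatty acid genes, grouped by role; colours mark higher, lower and not past the threshold, and the dotted line is the median of all features, 0.11. The carnitine palmitoyltransferases, peroxisomal enzymes and fatty acid binding proteins lie to the right of 0. To the left are called 8 of 12 mitochondrial beta-oxidation genes, with Acad9, Acad10, Acad11 and Acad12 among these 8.

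The 12 genes that were not measured had no probe well above background on any array: Acsm1, Acsm2, Acsm4, Acsm5, Fads6, Scd4, Fabp1, Fabp2, Fabp5, Fabp6, Acox2 and Acoxl. Several of these are known from liver, kidney or gut, among them Fabp1, the liver binding protein, Fabp2, the intestinal one, Fabp6, which binds bile acids in the ileum, and Acox2, the oxidase of bile acid intermediates. For these probes the arrays give only a bound, not an absence.

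**Figure D2:**
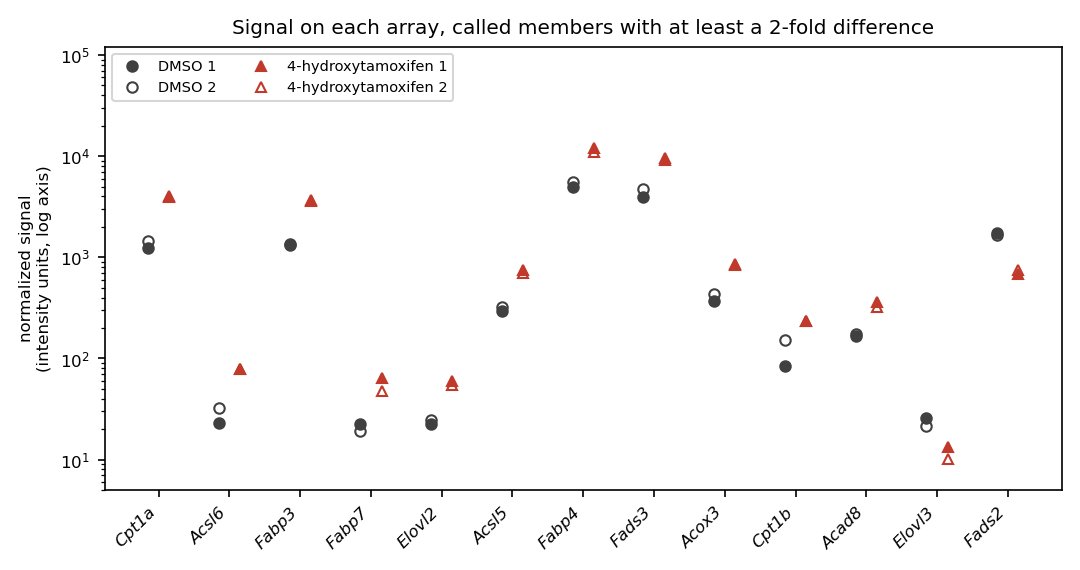
Normalized signal in intensity units (log axis) on each of the 4 arrays for 13 of the 14 fatty acid genes called with a difference of at least 2-fold; circles are the DMSO arrays and triangles the 4-hydroxytamoxifen arrays. In these 13 genes both arrays of one group lie on the same side of both arrays of the other, as in 86.5% of all features. The genes were chosen by call and size, so this separation adds no support. Elovl3 was not well above background with 4-hydroxytamoxifen, so only a bound of at least 1.34-fold holds for it. On the log axis Cpt1b is the gene whose DMSO arrays lie farthest apart (85.1 and 153.0).

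RefSeq windows upstream of the transcription start (assembly GRCm38.p6) were available for 43 of the 56 measured genes. Among those without one are Acad9, Fabp12, Scd2, Fabp9, Elovl3, Cpt1b, Scd1, Acaa2, Fads1, Fabp4, Acss3 and Acsbg2. The 250 bases before the start are shown for Cpt1a and Fabp3, the called genes with the largest rise among the carnitine palmitoyltransferases and binding proteins, and for Fads2 and Hadhb, which fell; capitals mark matches on either strand to the motifs named below.
Cpt1a, chr19:3323051-3323300, plus strand: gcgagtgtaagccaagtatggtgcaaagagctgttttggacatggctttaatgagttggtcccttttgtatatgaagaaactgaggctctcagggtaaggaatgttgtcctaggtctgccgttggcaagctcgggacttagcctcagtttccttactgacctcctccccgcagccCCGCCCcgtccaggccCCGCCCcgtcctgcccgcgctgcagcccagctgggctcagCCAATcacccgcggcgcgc
Fabp3, chr4:130308488-130308737, plus strand: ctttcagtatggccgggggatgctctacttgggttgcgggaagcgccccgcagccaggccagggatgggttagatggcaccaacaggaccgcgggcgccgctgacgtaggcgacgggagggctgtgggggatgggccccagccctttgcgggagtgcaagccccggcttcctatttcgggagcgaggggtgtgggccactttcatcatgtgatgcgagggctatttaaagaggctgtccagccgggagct
Fads2, chr19:10101504-10101753, minus strand: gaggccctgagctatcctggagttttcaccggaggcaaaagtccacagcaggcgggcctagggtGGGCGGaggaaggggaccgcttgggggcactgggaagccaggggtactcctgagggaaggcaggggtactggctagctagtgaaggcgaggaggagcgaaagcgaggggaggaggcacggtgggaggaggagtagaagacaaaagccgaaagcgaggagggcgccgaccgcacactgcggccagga
Hadhb, chr5:30155003-30155252, plus strand: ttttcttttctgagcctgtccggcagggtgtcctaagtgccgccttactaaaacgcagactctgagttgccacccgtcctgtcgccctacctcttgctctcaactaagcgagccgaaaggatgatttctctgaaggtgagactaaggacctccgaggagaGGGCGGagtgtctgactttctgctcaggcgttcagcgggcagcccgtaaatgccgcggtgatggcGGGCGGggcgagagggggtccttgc
The Cpt1a window held 2 matches to the GC box GGGCGG, both on the opposite strand, and 1 CCAAT box, 19 bases before the start. The Hadhb window held 2 GC boxes and the Fads2 window 1, and the Fabp3 window held no match to any of the 5 motifs.

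The 5 motifs were searched on both strands in all windows. Here all genes are the 27025 genes with a window, whether or not the arrays measured them. The fatty acid genes are measured ones, and shares among measured genes alone were not computed. The repeat that PPAR receptors bind, AGGTCA and again AGGTCA with 1 base between, with up to 2 mismatches, was in a window of 3.72% of all genes and in 1 of the 43 fatty acid genes, Elovl1, 95 bases before a start of that gene. The sterol element TCACNCCAC was in 1.22% of all genes and in 1 of 43, Acsl1, 76 bases before a start. The E-box CACGTG was in 6.86% of all genes and in 1 of 43, Elovl5. CCAAT was in 37.5% of all genes and in 21 of 43, which are 13 of the 20 genes that rose, 6 of the 15 that fell and 2 of the 8 not called. GGGCGG was in 35.4% of all genes and in 26 of 43, or 15 of 20, 8 of 15 and 3 of 8 in the same order. The fatty acid genes' windows were also richer in G and C, with a median of 59.8% against 52.4% over all windows. Matches can share bases, as in Elovl1, where a GC box on the opposite strand runs into a CCAAT box. A match here is a run of letters, not a measured site.

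De novo synthesis showed 1 call among 3 genes. Acacb, the acetyl-CoA carboxylase of the outer mitochondrial membrane, whose product malonyl-CoA inhibits Cpt1, read 1192 and 1119 with DMSO and 559.5 and 607.9 with 4-hydroxytamoxifen. It fell by 0.99 ± 0.08 on the log2 scale (adjusted p = 0.0012), and no array of one group overlapped the other. Its probe lies on chromosome 5, positions 114700635 to 114700695 of mm9. Acaca, the cytosolic carboxylase that feeds palmitate synthesis, differed by 0.12 ± 0.07 (adjusted p = 0.210), and its 4 tested probes ran from -0.50 to 0.21 and did not pass singly; the sign of its difference turned under median scaling (-0.062) and spike-in scaling (-0.024). Fasn, which carries out all the steps of palmitate synthesis on one protein, read 41535 and 42335 against 33565 and 38940, a difference of -0.21 ± 0.10 that did not pass (adjusted p = 0.114). A dimmer Fasn probe read 424.1 and 448.1 against 271.3 and 282.5 and was called lower, at -0.66 ± 0.07, in the fit of single probes, so the probes of Fasn agree in sign and differ in the call. Fasn was called lower with normexp background correction (-0.22), with median scaling (-0.40) and as the mean of its probes (-0.43).

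The genes that supply and regulate this step moved in both directions, as did features in general. Of 18 genes of precursor supply, mitochondrial synthesis and the other steps of elongation, 17 were measured, 5 rose and 6 fell (median -0.12). That is 29.4% higher and 35.3% lower, against 40.3% and 29.3% of all features. Under median scaling 9 fell (median -0.31), under spike-in scaling 5 (median -0.27), and as the mean of each gene's probes 3 (median -0.025). Mid1ip1, an activator of acetyl-CoA carboxylase, rose from 1469 and 1418 to 3866 and 3707, by 1.39 ± 0.07 (adjusted p = 0.000532). Thrsp, its paralog, was not well above background with DMSO and was at least 1.38-fold higher with 4-hydroxytamoxifen (adjusted p = 0.000562), a bound set by the lowest signal well above background on each array. Of the dehydratases of the elongation cycle, Hacd4 rose by 1.06 ± 0.07 and Hacd2 fell by 1.06 ± 0.09, the latter by 0.36 when its probes were averaged.

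Of 7 elongases, 2 rose, 3 fell and 2 did not pass. Elovl1, which makes saturated and monounsaturated very long chains, read 2850 and 3034 with DMSO and 5616 and 5549 with 4-hydroxytamoxifen and rose by 0.92 ± 0.07 (adjusted p = 0.0010). Elovl2, which lengthens polyunsaturated acids, read 22.4 and 24.9 against 59.4 and 54.7 and rose by 1.27 ± 0.09 (adjusted p = 0.000937; chromosome 13, positions 41278580 to 41278639 of mm9). In both genes the arrays of the groups stood clear of each other, as in 86.5% of all features. Elovl2 was dim, and its rise was 0.51 with normexp correction. Elovl5, another polyunsaturated elongase, fell by 0.41 ± 0.06 (adjusted p = 0.0055), from 7815 and 8008 to 6031 and 5897. Its second probe, at -0.29, was not called in the fit of single probes. Elovl6, which takes palmitate to stearate, fell by 0.33 ± 0.07 (adjusted p = 0.0158). Elovl3 read 25.8 and 21.4 against 13.2 and 10.2 (chromosome 19, positions 46209762 to 46209821 of mm9). It was not well above background on either 4-hydroxytamoxifen array, so it was at least 1.34-fold lower (adjusted p = 0.0078), and with normexp correction the difference of -0.17 did not pass (adjusted p = 0.0601).

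The elongases not called were the ones whose arrays scattered most. Elovl7 read 69.3 and 28.8 with DMSO and 98.2 and 109.6 with 4-hydroxytamoxifen, a difference of 1.22 ± 0.45 (adjusted p = 0.0728). Its groups do not overlap, but the DMSO arrays lay 1.27 apart on the log2 scale; leaving out DMSO replicate 1 gave a difference of 1.85, and leaving out DMSO replicate 2 gave 0.58. Both fits passed the threshold, with the spread then taken from the close treated arrays and not from the scattered controls. Elovl4, which makes the ultra-long chains known from retina, skin and testis, read 107.5 and 146.1 against 175.5 and 149.8, a difference of 0.37 ± 0.18 (adjusted p = 0.141), or 0.59 without DMSO replicate 2, where it passed with 1 control array left. The call on Elovl6 was lost without DMSO replicate 2 (-0.30, adjusted p = 0.0640) and without 4-hydroxytamoxifen replicate 1 (-0.28, adjusted p = 0.0749), with differences close to the -0.33 of all arrays.

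Of 6 measured desaturases, 2 rose, 2 fell and 2 did not pass. Fads2, the delta-6 desaturase that begins polyunsaturated synthesis, read 1729 and 1657 with DMSO and 681.5 and 750.2 with 4-hydroxytamoxifen. It fell by 1.24 ± 0.08 (adjusted p = 0.000812), to less in both treated arrays than in either control. Fads3, the neighbouring family member, went the other way, from 3983 and 4705 to 9184 and 9625, a rise of 1.12 ± 0.11 (adjusted p = 0.0016), and its second probe rose by 1.27 ± 0.09. Fads1, the delta-5 desaturase, read 750.8 and 734.2 against 584.6 and 626.2 and fell by 0.30 ± 0.07 (adjusted p = 0.0208). The probes of the Fads cluster lie within a short stretch of chromosome 19 in mm9, Fads3 at positions 10132641 to 10132700, Fads2 at 10138750 to 10139180 and Fads1 at 10270530 to 10270589.

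The stearoyl-CoA desaturases, which add the first double bond to stearate and palmitate, differed less between the groups. Scd1 rose by 0.31 ± 0.07 (adjusted p = 0.0176), from 717.9 and 769.9 to 937.4 and 912.3. Scd2, the form known from brain and fetal tissue, read 11814 and 13254 against 16273 and 14363, a difference of 0.29 ± 0.10 that did not pass (adjusted p = 0.0675). Scd3 differed by 0.12 ± 0.09 (adjusted p = 0.288), with its sign turned under quantile (-0.055), median (-0.061) and spike-in scaling (-0.023). The Scd genes are close paralogs, and how far their probes cross-hybridise was not tested. The call on Scd1 was lost without DMSO replicate 1 (0.26, adjusted p = 0.0784) and without 4-hydroxytamoxifen replicate 1 (0.30, 0.0842) or 2 (0.33, 0.0657), while the difference stayed near 0.31. Under median and spike-in scaling the difference itself was smaller, 0.13 and 0.17, and did not pass. The call on Fads1 was lost without DMSO replicate 1 (-0.28, adjusted p = 0.0809), DMSO replicate 2 (-0.31, 0.0590) and 4-hydroxytamoxifen replicate 1 (-0.25, 0.0901), with the fall about as large in each.

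Of 13 measured acyl-CoA synthetases, which activate fatty acids or acetate, 5 rose, 4 fell and 4 did not pass. Acsl5, a long-chain form of mitochondria and endoplasmic reticulum, read 294.0 and 324.2 with DMSO and 752.0 and 705.6 with 4-hydroxytamoxifen and rose by 1.24 ± 0.08 (adjusted p = 0.000881; chromosome 19, positions 55368743 to 55369331 of mm9). Acsl6, known from brain and testis, read 22.8 and 32.7 against 79.2 and 78.1 and rose by 1.53 ± 0.19 (adjusted p = 0.0033; chromosome 11, positions 54174651 to 54174710). Acsl6 was well above background on 1 of 2 DMSO arrays, its second tested probe rose by 1.60 ± 0.28, and its rise was 0.54 with normexp correction. In the opposite direction, Acsl3, a form of lipid droplets and endoplasmic reticulum, read 3927 and 4025 against 2248 and 2333 and fell by 0.80 ± 0.06 (adjusted p = 0.0012). Acsbg1, the bubblegum synthetase of very long chains, fell from 710.9 and 663.5 to 379.1 and 409.2, by 0.80 ± 0.08 (adjusted p = 0.0018). The groups were apart on every array for these 4 genes, as in 86.5% of all features. Among the long-chain Acsl forms the direction was not shared.

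The other synthetases moved less. Acsf3, the mitochondrial malonyl-CoA synthetase, rose by 0.52 ± 0.06 (adjusted p = 0.0030), and Acsf2 fell by 0.60 ± 0.07 (adjusted p = 0.0033; -0.34 with normexp correction). Acss2, which makes cytosolic acetyl-CoA from acetate, fell by 0.42 ± 0.07 (adjusted p = 0.0084), and its second probe by 0.58; the mitochondrial acetate enzyme Acss1 differed by 0.20 ± 0.07 (adjusted p = 0.0553). Acsl1 rose by 0.41 ± 0.06 at its brightest probe (adjusted p = 0.0063), while its other probes, at 0.05 and 0.14, were not called, and the mean of its probes did not pass (0.20, adjusted p = 0.0842). Acsl4, which prefers arachidonate, had probes called in opposite directions: the brighter probe rose from 2752 and 2893 to 3851 and 3578, by 0.40 ± 0.07 (adjusted p = 0.0106), and the other fell from 1879 and 1830 to 1595 and 1375, by 0.32 ± 0.10 in the fit of single probes. The probes lie at positions 138752602 to 138752661 and 138755198 to 138755257 of chromosome X in mm9, and the mean of both gave 0.04 (adjusted p = 0.726).

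Acsm3, a medium-chain synthetase, differed by 0.34 ± 0.11 (adjusted p = 0.0504), or 0.45 without DMSO replicate 1, where it passed with 1 control array left. Acss3 read 20.4 and 14.2 against 7.86 and 59.9 and Acsbg2 4.50 and 23.5 against 41.8 and 6.33, so the groups overlapped and neither passed (adjusted p = 0.785 and 0.666). The difference of Acss3 was -1.12 without 4-hydroxytamoxifen replicate 2 and 1.81 without 4-hydroxytamoxifen replicate 1, so its sign followed which treated array was kept. Both fits passed the threshold in opposite directions on 1 treated array, and no direction is read from them. The call on Acsl4 was lost without 4-hydroxytamoxifen replicate 1 (0.34, adjusted p = 0.0545), and the calls on Acsl1, Acsl4 and Acsf3 under spike-in scaling (0.27, 0.25 and 0.37).

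Of 5 measured fatty acid binding proteins, 4 rose and 1 did not pass (median 1.13). With normexp background correction all 5 were called higher, by a smaller median of 0.58. Fabp3, the heart and muscle form, read 1324 and 1361 with DMSO and 3644 and 3717 with 4-hydroxytamoxifen. It rose 2.74-fold, by 1.45 ± 0.06 (adjusted p = 0.00047), the smallest adjusted p among the 56 genes; its probe lies on chromosome 4, positions 129992608 to 129992667 of mm9. Fabp4, the form of adipocytes, macrophages and some endothelium, read 4941 and 5564 against 12066 and 10958 and rose by 1.13 ± 0.10 (adjusted p = 0.0013; chromosome 3, positions 10204452 to 10204511), with its 3 probes between 1.05 and 1.13. Fabp7, the brain form, read 22.7 and 19.1 against 64.0 and 48.2 and rose by 1.42 ± 0.18 (adjusted p = 0.0033; chromosome 10, positions 57508039 to 57508098), or by 0.58 with normexp correction. For all of these the treated arrays lay above both controls, where the groups did not overlap in 86.5% of all features.

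Fabp9, the testis form, read 606.4 and 566.6 against 909.4 and 930.3 and rose by 0.65 ± 0.07 (adjusted p = 0.0022), and its second probe rose by the same amount (0.65). Fabp12 read 22.1 and 31.5 against 38.8 and 37.5, a difference of 0.53 ± 0.19 (adjusted p = 0.0656). Leaving out DMSO replicate 1 gave 0.28, and leaving out DMSO replicate 2 gave 0.79; the latter passed, with the spread then taken from the close treated arrays. Beside Fabp4, the adipocyte markers Adipoq and Cidec rose, by 1.49 ± 0.07 from 58.0 and 54.5 to 153.4 and 163.0 and by 2.22 ± 0.27 from 33.7 and 57.1 to 209.3 and 201.1 (0.93 and 1.34 with normexp correction), and the macrophage marker Lyz2 rose by 1.07 ± 0.09. The other measured adipocyte markers, Retn (0.19 ± 0.20) and Lipe (0.09 ± 0.15), did not pass. Of 8 macrophage markers measured 6 rose, while Cd68 (0.11 ± 0.07) and Ptprc (0.01 ± 0.07) did not pass. The part of these cell types in the Fabp4 signal was not tested.

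The carnitine palmitoyltransferases rose in all 4 genes, though with unequal strength. Cpt1a, the rate-limiting outer membrane enzyme of most tissues, read 1237 and 1439 with DMSO and 3906 and 4025 with 4-hydroxytamoxifen. It rose 2.97-fold, by 1.57 ± 0.10 (adjusted p = 0.00078), the largest difference of the 56 genes, and its second probe rose by 0.97 ± 0.09. The probes lie on chromosome 19, positions 3385374 to 3385433 and 3384629 to 3384688 of mm9. Cpt1b, the muscle form, read 85.1 and 153.0 against 232.5 and 235.3 and rose by 1.04 ± 0.30 (adjusted p = 0.0384; chromosome 15, positions 89246889 to 89246948). Its second probe read 29.1 and 29.1 against 165.8 and 199.3, a rise of 2.64 ± 0.11, so both Cpt1b probes rose and differed in size. Cpt1c, the brain form, rose by 0.25 ± 0.06 (adjusted p = 0.0281), while its second probe, at 0.21, was not called in the fit of single probes. Cpt2, the inner membrane enzyme, rose by 0.31 ± 0.07 (adjusted p = 0.0169), from 9635 and 9052 to 11437 and 11726.

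Of these calls, the one on Cpt1a was kept under every alternative tried. Under median scaling 1 of the 4 genes passed (Cpt1b 0.85, Cpt1c 0.07 and Cpt2 0.13 did not), under spike-in scaling 2 (not Cpt1c and Cpt2), and the differences stayed above 0. Cpt1b did not pass without 4-hydroxytamoxifen replicate 1 (1.04, adjusted p = 0.137) or 2 (1.03, 0.140), though its rise was as large as with all arrays. Its difference moved with the control kept, to 0.61 without DMSO replicate 1 and 1.46 without DMSO replicate 2. Cpt1c did not pass without any 1 array (0.21 to 0.28, adjusted p from 0.0633 to 0.128). Cpt2 did not pass without DMSO replicate 2 (0.27, adjusted p = 0.0747) or without 4-hydroxytamoxifen replicate 1 (0.33, 0.0648) or 2 (0.29, 0.0805), and these differences lay close to those of all arrays. Acacb, whose product restrains Cpt1, fell as given above.

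In mitochondrial beta-oxidation, as grouped here from general knowledge, most calls went the other way. Of 12 genes, 8 fell, 3 rose and 1 did not pass (median -0.45, against 0.11 over all features). The lower genes include Acad9, Acad10, Acad11 and Acad12, whose part in this pathway was not tested. Among the rest the direction was mixed, with Acadm, Acads, Hadha and Hadhb lower and Acadl, Acaa2 and Hadh higher. Hadha, the alpha subunit of the trifunctional protein, which holds the hydratase and dehydrogenase steps for long chains, read 1114 and 1164 with DMSO and 591.5 and 659.2 with 4-hydroxytamoxifen. It fell by 0.87 ± 0.08 (adjusted p = 0.0017; chromosome 5, positions 30446215 to 30446274 of mm9), and its second tested probe fell by 0.53 ± 0.10. Hadhb, the beta subunit with the thiolase step, fell from 10071 and 9663 to 7441 and 7077, by 0.44 ± 0.07 (adjusted p = 0.0057). The genes of these subunits stand head to head on chromosome 5, with 272 bases between the starts used here, so that the Hadhb window printed above and the window of Hadha share 228 bases.

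Among the acyl-CoA dehydrogenases, which take the first step, Acadm, the medium-chain enzyme, fell by 0.45 ± 0.06 (adjusted p = 0.0045), from 6388 and 6133 to 4593 and 4589. Acads, the short-chain enzyme, read 634.3 and 416.8 against 291.2 and 294.8 and fell by 0.81 ± 0.22 (adjusted p = 0.0314); its DMSO arrays were far apart. Acad12 fell from 814.9 and 769.4 to 420.9 and 455.2, by 0.86 ± 0.08 (adjusted p = 0.0015), and its second probe by 1.26 ± 0.14. Acad10 fell by 0.79 ± 0.13 (adjusted p = 0.0067) and Acad11 by 0.51 ± 0.09 (adjusted p = 0.0098). Acad9, which also helps to assemble respiratory complex I, fell by 0.21 ± 0.06 (adjusted p = 0.0442). This last call did not hold for single probes, where a dim second probe had a difference of 0.22, and the mean of the probes was 0.0043 (adjusted p = 0.958).

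Not all dehydrogenases were lower. Acadl, the long-chain dehydrogenase, read 463.1 and 487.1 against 936.6 and 875.6 and rose by 0.93 ± 0.07 (adjusted p = 0.0011). Acadvl, the very-long-chain enzyme of the inner membrane, read 22498 and 24440 against 27947 and 26328, a difference of 0.21 ± 0.08 that did not pass (adjusted p = 0.0737). Of the later steps, Acaa2, the mitochondrial thiolase, rose by 0.69 ± 0.07 (adjusted p = 0.0017), from 4924 and 5140 to 7923 and 8270. Hadh, the short-chain hydroxyacyl-CoA dehydrogenase, rose by 0.33 ± 0.07 (adjusted p = 0.0174), from 1123 and 1170 to 1504 and 1390.

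Some of these calls were lost with 1 array fewer while the differences stayed about as large. Without 4-hydroxytamoxifen replicate 2, 5 genes were called lower, and Acad11 (-0.49, adjusted p = 0.0579), Acads (-0.82, 0.118) and Acad9 (-0.23, 0.121) did not pass. Without 4-hydroxytamoxifen replicate 1, 6 were called lower, and Acads (-0.80, adjusted p = 0.124), Acad9 (-0.20, 0.153) and Hadh (0.28, 0.0774) did not pass. Hadh did not pass without DMSO replicate 1 either (0.31, adjusted p = 0.0684), nor did Acad9 without DMSO replicate 1 (-0.18, 0.190) or 2 (-0.25, 0.0880). The size of the Acads difference did depend on the control kept, at -0.51 without DMSO replicate 1 and -1.11 without DMSO replicate 2. Hadh was not called under median (0.15) or spike-in scaling (0.19). The median of the 12 genes stayed below 0 under every alternative, from -0.63 to -0.41. It includes Acad9, Acad10, Acad11 and Acad12, all called lower, and the direction of the rest was mixed. A median without them was not taken.

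The acyl-CoA dehydrogenases of branched-chain amino acid breakdown, which share the family name, both rose. Acad8, which acts on the valine pathway, read 165.6 and 175.5 with DMSO and 358.3 and 325.1 with 4-hydroxytamoxifen and rose by 1.001 ± 0.082 (adjusted p = 0.0012; chromosome 9, positions 26782702 to 26782761 of mm9). Acadsb, which acts on the isoleucine pathway, rose from 292.0 and 344.4 to 539.8 and 537.2, by 0.76 ± 0.10 (adjusted p = 0.0040).

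Of the peroxisomal genes, Acox3, an oxidase of branched chains, read 369.9 and 429.3 with DMSO and 866.4 and 842.5 with 4-hydroxytamoxifen and rose by 1.10 ± 0.10 (adjusted p = 0.0014; chromosome 5, positions 35956215 to 35956274 of mm9). Its treated arrays lay above both controls, and its call was kept under every alternative tried. The peroxisomal thiolase Acaa1a rose from 16510 and 17178 to 26612 and 23971, by 0.58 ± 0.08 (adjusted p = 0.0045), but its other probes, at 0.07 and 0.18, were not called, and under spike-in scaling its difference of 0.44 did not pass (adjusted p = 0.0758). Acaa1b rose by 0.26 ± 0.08 (adjusted p = 0.0483); it did not pass without DMSO replicate 1 (0.28, adjusted p = 0.104), DMSO replicate 2 (0.24, 0.141) or 4-hydroxytamoxifen replicate 1 (0.18, 0.161), nor under median (0.08) or spike-in scaling (0.11). Acaa1a and Acaa1b are near-identical, and how far their probes cross-hybridise was not tested.

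**Figure D3:**
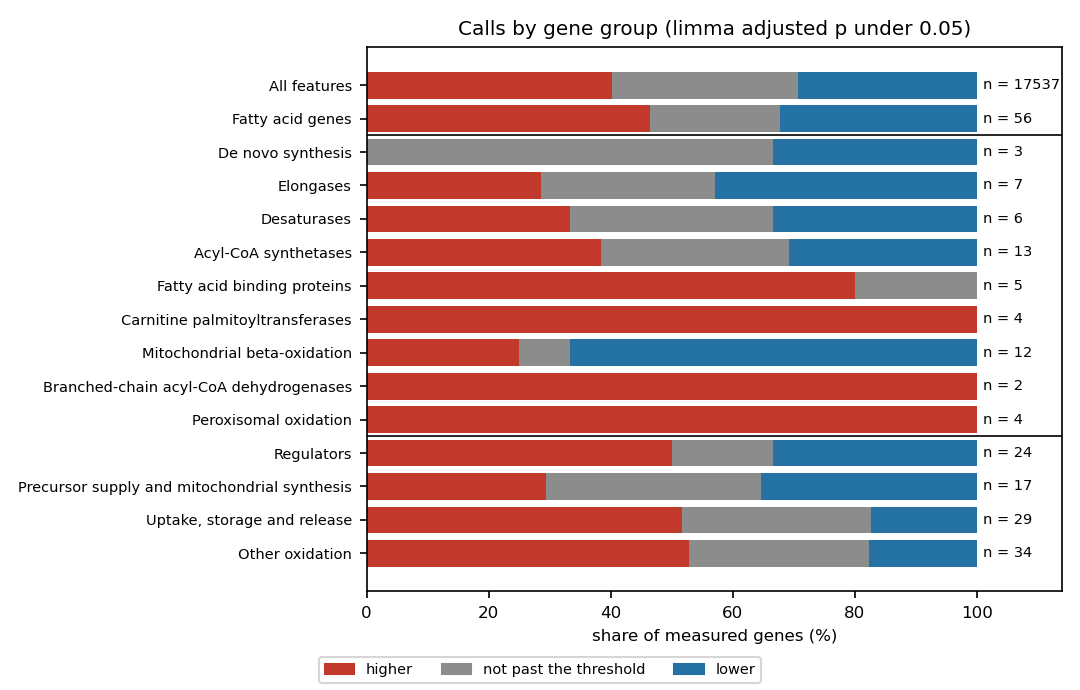
Share of measured genes (x axis, %) called higher, lower or not past the threshold for all 17537 features, the 56 fatty acid genes, their groups by role and the lists of other pathway genes, with the number measured at the right. The binding proteins, carnitine palmitoyltransferases, branched-chain dehydrogenases and peroxisomal genes hold no lower call, and mitochondrial beta-oxidation holds 8 lower calls of 12. Acad9, Acad10, Acad11 and Acad12 are among these 8.

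Of 39 other genes that serve oxidation, 34 were measured, 18 rose and 6 fell (median 0.35). That is 70.6% called, where 69.5% of all features were called. By direction, 52.9% rose against 40.3% of all features, and 17.6% fell against 29.3%. Under median scaling 16 rose and 11 fell (median 0.16), under spike-in scaling 9 rose and 5 fell (median 0.20), and as the mean of each gene's probes the median was 0.17. Pdk4, the kinase that turns pyruvate dehydrogenase off when fatty acids are burned, read 203.6 and 218.6 with DMSO and 783.1 and 733.0 with 4-hydroxytamoxifen and rose by 1.84 ± 0.08 (adjusted p = 0.000469). Of the electron carriers that take up the electrons of the acyl-CoA dehydrogenases, Etfb rose by 1.14 ± 0.10 (adjusted p = 0.0013) and Etfdh by 0.64 ± 0.07 (adjusted p = 0.0024), while Etfa, the partner of Etfb, fell by 0.48 ± 0.08 (adjusted p = 0.0082; -0.45 and 0.0503 without 4-hydroxytamoxifen replicate 2). Phyh, which starts peroxisomal alpha-oxidation, rose by 1.08 ± 0.09 (adjusted p = 0.0012). Abcd2, a peroxisomal acyl-CoA transporter, was not well above background with 4-hydroxytamoxifen and was at least 1.32-fold lower (adjusted p = 0.0017).

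Of 31 genes of uptake, storage and release, 29 were measured, 15 rose and 5 fell (median 0.31). That is 69% called, where 69.5% of all features were called. By direction, 51.7% rose against 40.3% of all features, and 17.2% fell against 29.3%. The median was smaller with normexp correction (0.18), median scaling (0.13, 12 higher and 7 lower) and spike-in scaling (0.17, 10 higher and 4 lower). Plin2, a coat protein of lipid droplets, read 9899 and 10623 with DMSO and 25133 and 24755 with 4-hydroxytamoxifen and rose by 1.28 ± 0.07 (adjusted p = 0.000652), and Plin4, another coat protein, rose by 1.25 ± 0.06 (adjusted p = 0.000595). Cd36, a fatty acid uptake receptor, rose from 15.4 and 20.7 to 45.6 and 42.1, by 1.30 ± 0.17 (adjusted p = 0.0035), with 1 of 2 DMSO arrays well above background and a rise of 0.44 with normexp correction. Agpat3 rose by 1.13 ± 0.08 (adjusted p = 0.000899). The enzymes of the last step of triglyceride synthesis fell, Dgat1 by 0.84 ± 0.08 (adjusted p = 0.0015) and Dgat2 by 0.37 ± 0.06 (adjusted p = 0.0075), the latter not past the threshold as the mean of its probes (-0.15). The 22 fibroblast markers that rose did so by 0.50 (Fn1) to 1.48 (Thbs1), and their part in these rises was not tested. Without 4-hydroxytamoxifen replicate 1, 11 genes of uptake and storage were called higher and 3 lower (median 0.26), and with no filter on dim probes 12 and 3.

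All 24 transcriptional and kinase regulators of the pathway were measured. Of them 50% rose and 33.3% fell, against 40.3% and 29.3% of all features. These were 12 higher and 8 lower genes, with a median of 0.19. That median has no settled sign: it was 0.0061 under median scaling (10 higher, 9 lower), 0.044 under spike-in scaling (6 higher, 7 lower) and -0.0053 over the 21 regulators left by a filter on all 4 arrays. Of the PPAR receptors, which switch on genes of oxidation and binding proteins, Ppara was not well above background in the DMSO arrays (11.7 and 14.6) and read 42.4 and 45.9 with 4-hydroxytamoxifen, at least 2.63-fold higher (adjusted p = 0.0011). Pparg rose by 0.46 ± 0.08 (adjusted p = 0.0075), or by 0.32 without passing under spike-in scaling, and Ppard by 1.10 ± 0.31 (adjusted p = 0.0338). Without either 4-hydroxytamoxifen array the difference of Ppard was again 1.10 and did not pass (adjusted p = 0.128 and 0.127), while leaving out DMSO replicate 1 gave 0.67 and leaving out DMSO replicate 2 gave 1.53. Their coactivators moved in opposite directions. Ppargc1b read 182.6 and 169.1 against 33.2 and 37.9 and fell by 2.31 ± 0.10 (adjusted p = 0.000469), while Ppargc1a was not well above background with DMSO and was at least 1.48-fold higher (adjusted p = 0.0077). With normexp correction the difference was -1.21 for Ppargc1b, 0.33 for Ppard and 0.26 for Pparg.

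Of the sterol-sensing regulators, Srebf1, which drives genes of fatty acid synthesis, fell by 0.38 ± 0.06 (adjusted p = 0.0068), and Srebf2, which drives sterol genes, rose by 0.68 ± 0.06 (adjusted p = 0.0016), though not as the mean of its probes (0.20, adjusted p = 0.101). Insig1 fell by 0.40 ± 0.08 (adjusted p = 0.0112; -0.34 and 0.0555 without 4-hydroxytamoxifen replicate 1) and Insig2 rose by 0.62 ± 0.06 (adjusted p = 0.0017; 0.0552 under spike-in scaling). Nr1h3, the liver X receptor alpha, rose by 1.18 ± 0.08 (adjusted p = 0.000825; 0.72 with normexp correction). Prkaa1, a catalytic subunit of the AMP-activated kinase that inactivates the acetyl-CoA carboxylases, rose from 915.7 and 1013 to 2693 and 2532, by 1.44 ± 0.08 (adjusted p = 0.000721).

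Counted by probe, the share called lay nearer to that of all features than when counted by gene. Of the 106 probes, 79 were tested, 33 rose, 22 fell and 24 did not pass, so that 69.6% were called where 67.2% of all 26392 probes tested were; by gene the shares were 78.6% and 69.5%. Of 18 genes with at least 2 tested probes, 10 had all probes called the same way, 5 had only some called, 2 (Acaca and Acad9) had none called, and Acsl4 had probes called in opposite directions.

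**Figure D4:**
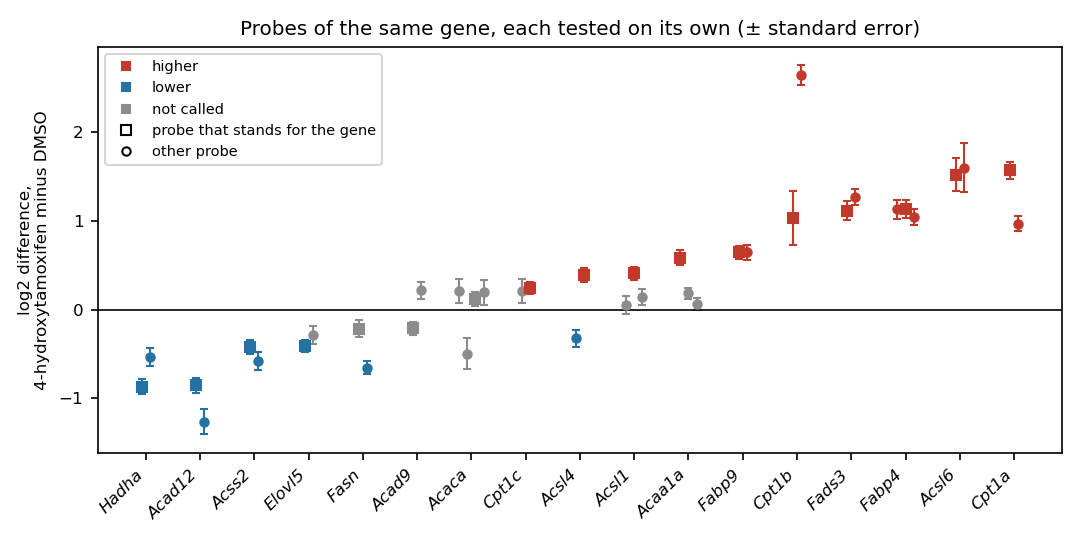
Difference on the log2 scale, 4-hydroxytamoxifen minus DMSO (y axis), ± standard error (2 arrays per group), for each tested probe of 17 of the 18 fatty acid genes with at least 2 tested probes; squares stand for the gene elsewhere and circles are its other probes. The probes of Acsl4 lie at 0.40 and -0.32, on opposite sides of 0, and those of Cpt1b at 1.04 and 2.64.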

How the data were processed

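RNA of 4 samples, 2 per group, was measured on Agilent 1-colour arrays of design 014868, labelled with Cy3 from 0.20 µg of RNA per the labels. The deposited scanner files hold spot intensity values on a linear scale, with background subtraction by Agilent Feature Extraction 10.7.3.1 per the file headers; the submitters' processing notes name version 9.5. The deposited value table holds log2 values, found here to be the scanner files' log2 processed signal with a constant added on each array (0.290, 0.275, 0.362 and 0.356; column medians 6.16, 6.18, 6.35 and 6.35 for DMSO 1 and 2 and 4-hydroxytamoxifen 1 and 2), so its scale and direction were settled from the files.

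Control spots and 60 to 71 outlier spots per array were left out, spots of a probe averaged, and log2 processed signals set against each array's 75th percentile (signals of 706.1 to 745.9). Kept were probes flagged well above background on 2 or more of 4 arrays, and the probe with the highest mean stood for its gene. The lowest signal well above background was 15.0 to 19.5 per array. The 2 groups were tested in R 4.3.3 with lmFit and eBayes of limma 3.58.1, group being the only term, with Benjamini-Hochberg adjustment over 17537 features; the smallest two-sided p of an exact permutation test of 2 against 2 arrays is 0.333. The fit was also run on simulated data, with independent noise drawn from its own estimated spread. That is a check of the code and does not speak to how these arrays vary. Where both arrays of a group were not well above background, only a bound is given: the mean of the brighter group over that of the dimmer one, with each dim signal raised to the lowest signal well above background on its array if it was under it. All arrays shared 1 slide and 1 scan, with DMSO at positions 1 and 3.

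Probes were named through RefSeq GRCm38.p6 (33636 matched, 7538 kept the file's name); coordinates of probes are those of the files, on mm9, and where in a transcript a probe lies was not analysed here. The members, lists and tests were chosen with earlier results of these data known. Named with their values were members past the threshold by at least 1 on the log2 scale and, from each list, up to 4 passing genes with the largest difference. Srebf1, Srebf2, Insig1, Insig2, Pparg, Ppargc1a, Ppard, Etfa, Etfdh, Dgat1, Dgat2, Adipoq, Cidec, Lyz2, Ptprc and the other cell type markers given by name were named after their values were seen. Alternatives were normexp correction with an offset of 50, scaling by quantiles, by the median or by 7 spike-in probes, no filter and a filter on all 4 arrays, the mean of a gene's probes, the deposited value table, the replicate number as a block and leaving out each array. Results of 1 gene of the families are not reported here, though counts over the families include it.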

Additional observations from a re-analysis of the deposited data

How the results depend on the processing

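The median difference of the fatty acid genes, 0.32, was 0.24 with normexp background correction, 0.14 with median scaling, 0.18 with spike-in scaling and 0.27 with no filter on dim probes, where all 68 genes were tested; leaving out 1 array gave 0.27 to 0.34. The counts of higher and lower fatty acid genes stayed within 1.5 times of 26 and 18 under the alternatives run, among them 19 and 15 with spike-in scaling, 21 and 14 with no filter and 30 and 18 with normexp. Of the 44 called genes, 28 kept their direction and call under every alternative that tested them, and 16 changed in at least 1. The sign turned for Acaca with median (-0.062) and spike-in scaling (-0.024), for Scd3 with quantile (-0.055), median (-0.061) and spike-in scaling (-0.023), for Acad9 with the mean of its probes (0.0043), and for Abcd2 with no filter (0.68, where another probe stood for the gene). Leaving out 1 array gave -0.70 to 2.02 for Acsbg2 and -1.12 to 1.81 for Acss3. Beyond these, the cause of each change was not tested. With the replicate number as a block, 21 fatty acid genes were higher and 16 lower (6505 and 4556 of all features); deviations of same-numbered arrays correlated at -0.045, so the numbers were not taken as pairs. Signals near the lowest well above background limit Elovl2, Elovl3, Fabp7, Fabp12, Acsl6, Acss3 and Acsbg2.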
